A study of Rattus norvegicus with 19 samples.

Results

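Potassium channel genes were followed across 4 genotypes in the rat hippocampus. The set was chosen by symbol alone: genes whose symbol begins with Kcn and continues with the letter of a channel family (a, b, c, d, e, f, g, h, j, k, ma, mb, n, q, s, t, u or v) and a digit. Of 32623 genes counted, 84 matched, and *Kcnj13* and *Kcne2*, which mark the choroid plexus, were left out, so that the set held 82 genes. Of these, 68 had a mean of at least 0.5 CPM (the reads of a gene scaled to the size of its library) over the 19 libraries and were tested, and 14 lay below that floor.

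Potassium channels let potassium leave the cell and bring the membrane back towards rest. Voltage-gated channels are assembled from several pore subunits and set the length and the rate of action potentials, M-channels and calcium-activated channels limit repetitive firing, inwardly rectifying and leak channels hold the resting potential, and in glia they also clear potassium from the extracellular space. In the hippocampus the mixture of subunits differs between granule cells, pyramidal cells, interneurons and astrocytes.

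The libraries came from male Sprague Dawley rats, an outbred strain, in which the *Sult1a1* to *Spn* interval of rat chromosome 1, the counterpart of human 16p11.2, had been deleted or duplicated by CRISPR/Cas9. Littermates of 4 genotypes were compared, with 1 library per animal. The wild-type (wt) group had 6 animals and 2 copies of the interval, Del/+ had 4 animals and 1 copy, Dup/+ had 5 animals and 3 copies, and Del/Dup, which carries the deleted and the duplicated chromosome together, had 4 animals and 2 copies. Where the value of every library in a group is given, the order is that of the replicate numbers, which run from 2 to 5 in Del/Dup and from 1 in the other groups. Both alterations are carried in the germline and so reach every cell type, the labels name no treatment in any group, and the animals were adults per the study, with no age in weeks given for them in the sources used here. In such bulk tissue, fewer cells of a type and less RNA per cell cannot be told apart.

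Libraries held 16191192 to 38760645 counted reads, and 65 of the 82 channel genes had at least 10 reads in every library. *Kctd13*, a gene of the interval, followed the copy number: it lay between 79.4 and 86.8 CPM in wt, 36.6 and 50.7 in Del/+, 109 and 122 in Dup/+, and 63.4 and 85.1 in Del/Dup. The labels of wt replicate 5 contradict each other, since its genotype field reads Dup/+. It was counted as wt after its description, and its *Kctd13* level, 79.4 CPM, was just under the 79.5 to 86.8 of the other 5 wt libraries and below every Dup/+ library. The share of reads that mapped to several places was 40.1 to 50.5% in wt and Dup/+, 41.6% in Del/+ replicate 4, and 57.8 to 76.3% in the other 3 Del/+ and all 4 Del/Dup libraries. This split cannot be told apart from the Del/Dup genotype, and for Del/+ it leaves 1 library on the wt side. Summed choroid plexus markers reached 1284 CPM in Del/+, 410.5 in Dup/+ and 1220 in Del/Dup, against at most 36.5 in wt, with *Otx2* at 0. Markers of neurons (4797 to 5775 CPM summed) and of astrocytes (3444 to 4506) were present in every library.

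Across the 4 groups together, 0 of the 68 channel genes passed an adjusted p of 0.05, where 0.823% of the 15440 genes tested did. DESeq2 called 4, *Kcng1*, *Kcnc2* and *Kcna2* among them, or 5.88% against 4.57% of all genes. At an unadjusted p under 0.05 there were 15 channel genes, or 22.1%, against 18.9% of all genes. The median log2 fold change of the 68 lay between -0.02 and 0.04 in the 4 comparisons of pairs of groups, and their median absolute change was a little above that of all genes: 0.11 against 0.09 in Del/+ against wt, 0.09 against 0.07 in Dup/+ against wt, and 0.12 against 0.09 in Del/Dup against wt. In Del/+ against Dup/+ it was 0.13 against 0.08. The channel genes were also somewhat more variable between animals of a group, with a median biological coefficient of variation of 0.103 against 0.0852 for all genes.

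**Figure D1:**
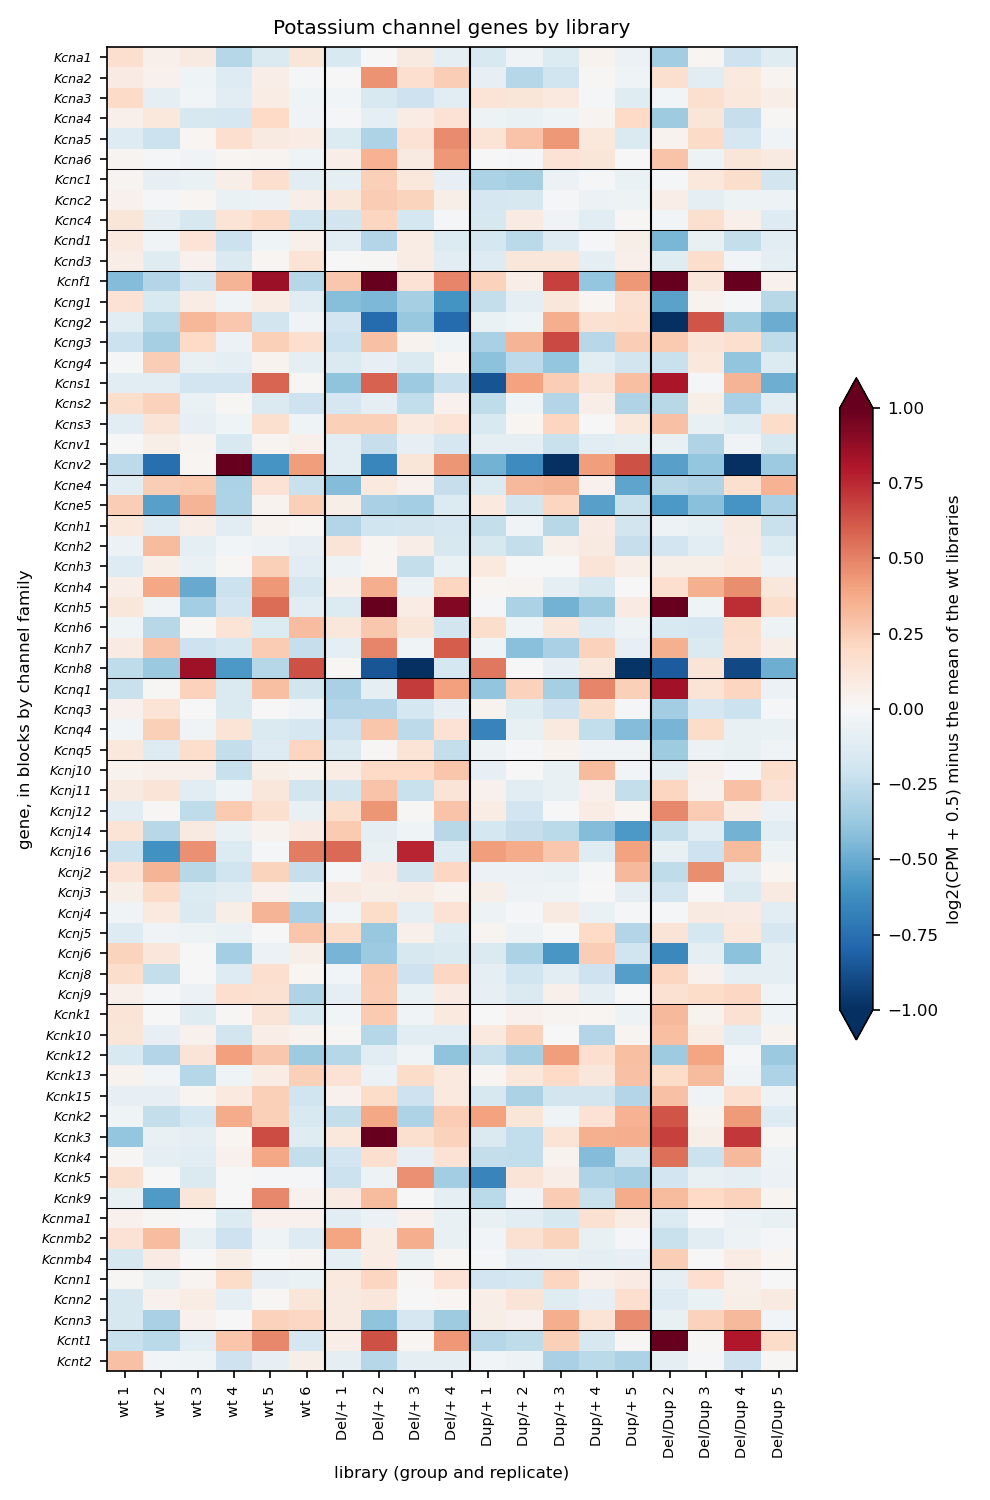
Each row is 1 of 65 tested channel genes, in blocks by family, and each column 1 library. The colour gives log2(CPM + 0.5) minus the mean of the wt libraries, from -1 to 1. Most rows are pale in all 4 groups, and the strong colours belong to genes such as *Kcnf1*, *Kcnh5*, *Kcnt1*, *Kcng2*, *Kcnh8* and *Kcnv2*, which differ between animals of 1 genotype.

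The question of the first comparison was what loss of 1 copy of the interval does. In Del/+ against wt, 1 of the 68 genes was called, *Kcng1*, or 1.47% against 0.771% of all genes. An unadjusted p under 0.05 was reached by 13 (19.1%, against 18.4% of all genes), of which 8 were lower and 5 higher. The values of the 4 Del/+ and 6 wt libraries did not overlap for 4 genes (5.88%, against 4.88% of all genes): *Kcng1* and *Kcnh1* were lower and *Kcna6* and *Kcnj10* higher in Del/+.

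*Kcng1* (ENSRNOG00000054314) encodes an electrically silent subunit that does not open on its own and alters channels it forms with other subunits. It was at 24.1, 23.7, 25.7 and 21.2 CPM in the Del/+ libraries, and its lowest, median and highest wt values were 29.2, 32.9 and 35.9. In Dup/+ it was at 27.4, 30.2, 35.2, 33.0 and 36.1, and in Del/Dup at 22.2, 33.3, 32.2 and 26.8. All Del/+ libraries thus lay below all wt and all Dup/+ libraries, while Del/Dup spanned both. The level fell by 0.47 on the log2 scale in Del/+ against wt (SE 0.0987, edgeR adjusted p = 0.0284). The Del/+ library with a low multi-mapped share had the lowest value of the group, 21.2, under the 29.2 to 35.9 of wt, all of low share. Between the 3 Del/+ libraries of high share (23.7 to 25.7) and Del/Dup (22.2 to 33.3), also of high share, the values overlapped. With a term for the share the estimate was -0.63 and no longer called (adjusted p = 0.0954). The call was also lost with the choroid plexus gene *Ttr* as a covariate (-0.46, adjusted p = 0.0780) and with the level of dentate and CA3 markers as a covariate (-0.39, adjusted p = 0.253). It was lost without wt replicate 1, 3 or 5 and without Del/+ replicate 2 or 4, and the estimate stayed between -0.63 and -0.39 throughout.

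**Figure D2:**
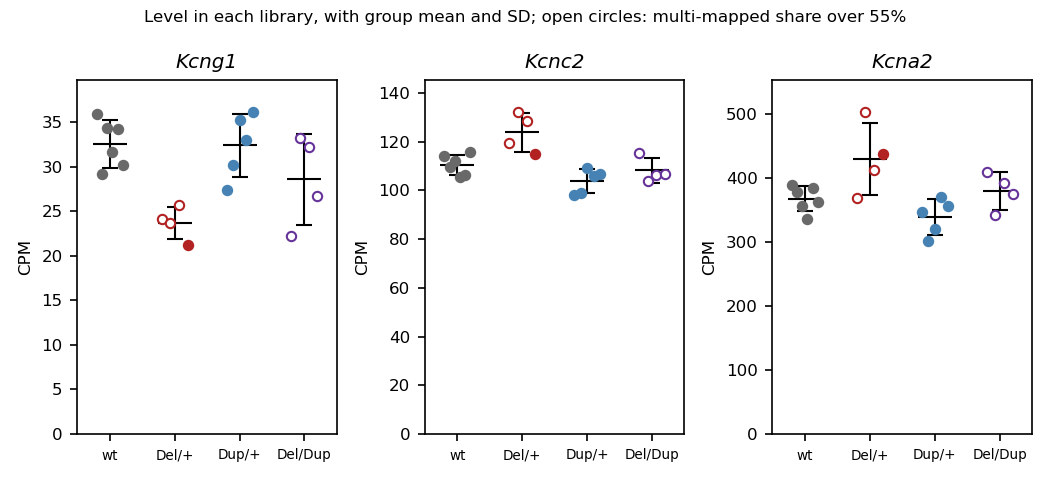
CPM of *Kcng1*, *Kcnc2* and *Kcna2* in each library by genotype, 1 point per animal, with the group mean and SD (n = 6, 4, 5 and 4). Open circles are libraries with a multi-mapped share over 55%. For *Kcng1* the Del/+ points (21.2 to 25.7) lie under those of wt and Dup/+. For *Kcnc2* those of Del/+ (115 to 132) lie above those of Dup/+ (98.0 to 109).

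The other silent subunits gave no call in Del/+. *Kcnv1* had a mean of 58.9 ± 2.66 CPM in Del/+ and 65.3 ± 3.47 in wt (SD, n = 4 and 6), a log2 difference of -0.16 (adjusted p = 0.118). *Kcng2* was at 22.2, 14.7, 19.5 and 14.7 CPM in Del/+, and in wt at 21.0, 24.1 and 32.2 (lowest, median, highest). These groups overlapped, and its difference of -0.54 had an SE of 0.224 (adjusted p = 0.205).

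Among Shaker-type channels, which open at low voltage in axons and terminals, *Kcna6* was at 101 to 131 CPM in Del/+ and at 94.1 to 98.9 in wt. The groups did not overlap, and the log2 difference of 0.23 (SE 0.0672) had an adjusted p of 0.0909. It was 0.13 with the dentate and CA3 marker level as a covariate (adjusted p = 0.501) and 0.42 with a term for the multi-mapped share, and it was called without Del/+ replicate 1. *Kcna2* differed by 0.22 (adjusted p = 0.124). Summed oligodendrocyte markers, the cells that wrap the axons where these channels lie, were 5875 to 8939 CPM in Del/+ and 4980 to 6489 in wt, with 0 of 6 called and 5 of 6 at an unadjusted p under 0.05. Their part in the *Kcna* values was not tested.

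*Kcnh1*, an ether-à-go-go channel, was at 65.1 to 71.1 CPM in Del/+ and 74.0 to 86.0 in wt, a log2 difference of -0.22 (SE 0.0680, adjusted p = 0.102). *Kcnj10*, the inward rectifier of astrocytes, was at 50.6 to 58.0 CPM in Del/+ and 41.0 to 49.8 in wt, with a difference of 0.18 (adjusted p = 0.201). Neither passed the threshold with edgeR, although the groups did not overlap. Of the 6 astrocyte markers 0 were called and 2 had an unadjusted p under 0.05, with a median log2 difference of -0.12. Their part in the *Kcnj10* value was not tested.

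The M-current, a slow current that holds neurons below threshold, is carried by products of the *Kcnq* family, *Kcnq3* and *Kcnq5* among them. In Del/+ against wt *Kcnq3* differed by -0.22 (127 ± 9.04 against 147 ± 9.44 CPM, adjusted p = 0.114) and *Kcnq5* by -0.07 (207 ± 23.9 against 216 ± 28.2, adjusted p = 0.716). Neither was called with edgeR. DESeq2 called 5 channel genes in this comparison, *Kcng1*, *Kcna6*, *Kcnc2*, *Kcnh1* and *Kcnq3*, or 7.35% against 4.24% of all genes.

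**Figure D3:**
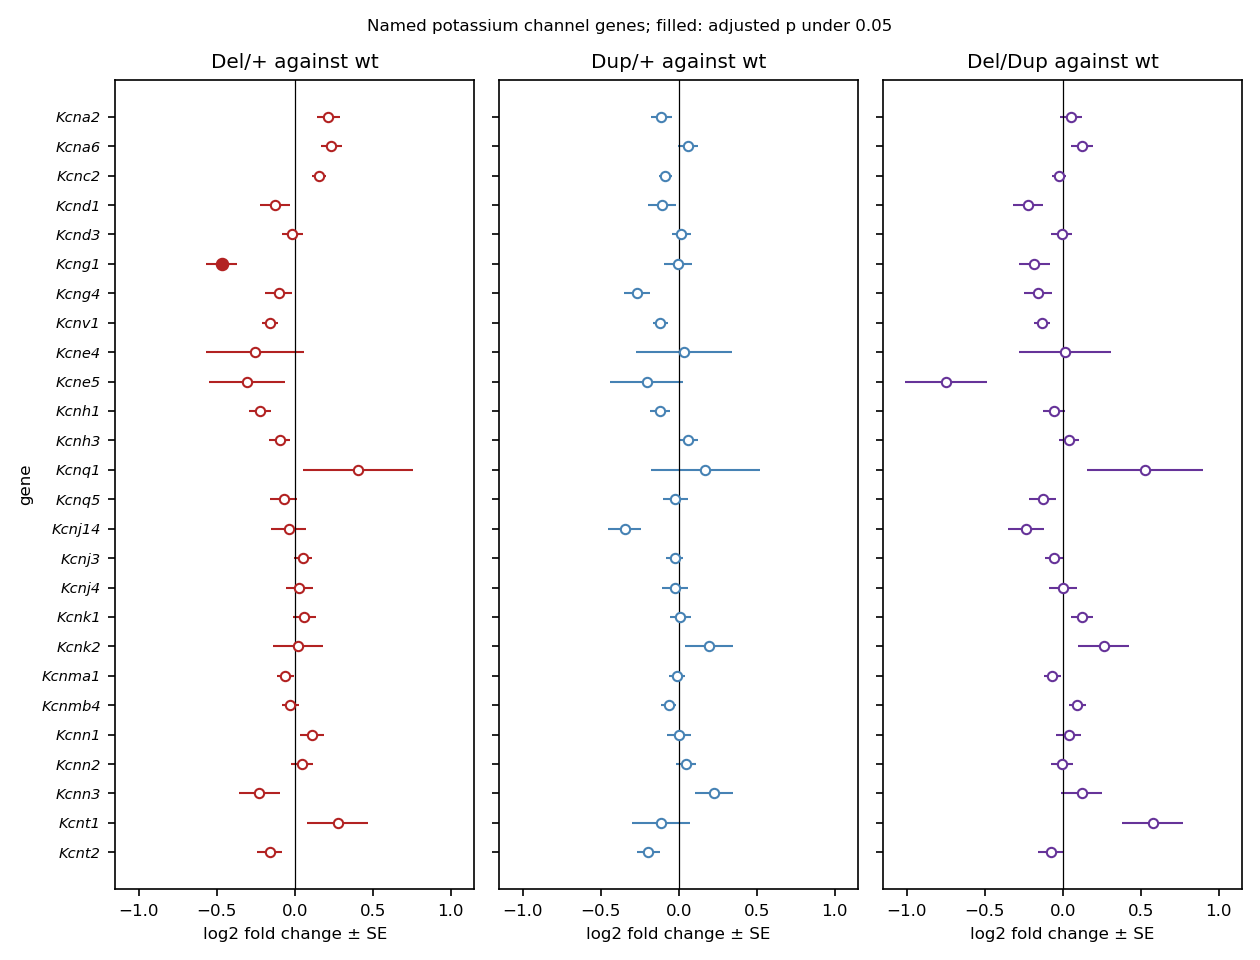
Log2 fold change against wt, with its SE, of 26 tested channel genes named by rule, in Del/+, Dup/+ and Del/Dup. A filled point marks an edgeR adjusted p under 0.05. The only filled point is *Kcng1* in Del/+, at -0.47.

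The second comparison addressed the gain of 1 copy, and both groups lay on the same side of the multi-mapped share. In Dup/+ against wt, 0 of 68 genes were called (0.272% of all genes), and 0 by DESeq2 (0.518% of all genes). Red cell markers moved with this comparison: *Hbb* and *Hba-a2* were called and rose, all 3 tested had an unadjusted p under 0.05, and their sums were 134 to 180 CPM in Dup/+ and 85.5 to 119 in wt, without overlap. Their part in the channel values was not tested. At an unadjusted p under 0.05 there were 8 channel genes, or 11.8%, against 8.94% of all genes. All 8 were lower in Dup/+, where 4.48% of all genes had such a p and were lower, and *Kcnv1*, *Kcnk15*, *Kcnt2*, *Kcnj8*, *Kcng4* and *Kcnj14* were among them. The 8 come from 6 of the 13 families, from *Kcnk15* of the *Kcnk* family to the KATP pore *Kcnj8*. The groups did not overlap for 1 gene (1.47%, against 1.17% of all genes).

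That gene was *Kcng4*, a silent subunit, at 17.6, 19.6, 18.0, 21.99 and 20.8 CPM in Dup/+, and at 22.00, 22.9 and 28.2 in wt (lowest, median, highest). The highest Dup/+ value lay just under the lowest wt value, and the difference of -0.27 (SE 0.0815) had an adjusted p of 0.295. *Kcnj14*, a weakly counted inward rectifier, differed by -0.35 (8.53 ± 0.998 against 10.9 ± 1.12 CPM, adjusted p = 0.301), and the sodium-activated *Kcnt2* by -0.19 (51.2 ± 5.36 against 58.9 ± 7.18, adjusted p = 0.468). Both genes overlapped between the groups.

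Del/Dup against wt asked whether 2 copies on the duplicated chromosome, beside a deleted homolog, differ from the usual 2. No channel gene was called by edgeR (0.0907% of all genes were) or by DESeq2 (1.19%). There were 10 genes at an unadjusted p under 0.05 (14.7%, against 16.2% of all genes), 3 higher and 7 lower. The groups overlapped for all 68, against 2.54% of all genes that did not. The wt libraries are shared by the 3 comparisons with wt.

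*Kcnt1*, a sodium-activated channel, was at 44.1, 20.7, 36.1 and 23.4 CPM in Del/Dup and at 16.9, 18.6 and 28.8 in wt (lowest, median, highest), so that replicates 2 and 4 were above all wt libraries and the other 2 within their range. The log2 difference was 0.58 with an SE of 0.194 (adjusted p = 0.187), and ranged from 0.11 to 0.73 over the alternatives. *Kcne5*, a single-pass accessory subunit at the edge of detection, was at 0.503 to 0.702 CPM in Del/Dup and 0.531 to 1.40 in wt (-0.75, adjusted p = 0.201). *Kcnv1* differed by -0.13 (adjusted p = 0.222), and by -0.08 without Del/Dup replicate 3.

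The third question was how 1 copy differs from 3. In Del/+ against Dup/+, 3 of 68 genes were called (4.41%, against 0.784% of all genes): *Kcnc2* and *Kcna2* rose and *Kcng1* fell in Del/+. DESeq2 called the same 3 genes (1.73% of all genes). An unadjusted p under 0.05 was reached by 15 (22.1%, against 13.5%), 9 higher and 6 lower. The groups did not overlap for *Kcnc2*, *Kcng1* and *Kcng2* (4.41%, against 5.51% of all genes). A slope fitted over 1, 2 and 3 copies in all 19 libraries called *Kcnc2* and *Kcna2* (2.94%, against 0.576% of all genes; with DESeq2 also *Kcng1*, 4.41% against 1.05%), and 15 genes had an unadjusted p under 0.05 (22.1%, against 11.5%). The slope uses the same Del/+ and Dup/+ libraries and is not a second line of evidence. Markers of other tissue and cell types differed between these groups as well. The thalamus and habenula markers summed to 62.1 to 71.8 CPM in Del/+ and 40.5 to 52.3 in Dup/+, with *Rora* called and 3 of 5 at an unadjusted p under 0.05. The red cell markers summed to 77.6 to 124 and 134 to 180 CPM, with *Hba-a2* and *Alas2* called. The CA2 markers summed to 163 to 188 CPM in Del/+ and 193 to 245 in Dup/+, with 0 of 3 called and 2 at an unadjusted p under 0.05, and of the 4 neuron markers 0 were called and 2 had such a p. Their part in the channel differences was not tested.

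The 2 genes called in both are shown with the 250 bases before their start in the RefSeq annotation of GRCr8, since they moved in the same direction. The capitals mark the GC box, searched as GGGCGG on both strands. The first stretch lies at chr7:49587364-49587613 and the second at chr2:197393280-197393529, both on the plus strand.
Kcnc2: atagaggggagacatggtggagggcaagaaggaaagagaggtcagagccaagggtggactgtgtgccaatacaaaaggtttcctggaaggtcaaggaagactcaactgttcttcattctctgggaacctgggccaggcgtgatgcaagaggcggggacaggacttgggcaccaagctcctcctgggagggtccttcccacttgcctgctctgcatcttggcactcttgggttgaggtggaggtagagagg
Kcna2: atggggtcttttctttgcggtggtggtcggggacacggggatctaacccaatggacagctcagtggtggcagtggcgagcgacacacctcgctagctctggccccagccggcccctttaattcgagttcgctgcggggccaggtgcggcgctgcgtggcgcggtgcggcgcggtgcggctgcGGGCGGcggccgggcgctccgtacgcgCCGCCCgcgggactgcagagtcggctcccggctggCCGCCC
The *Kcna2* stretch held 3 GC boxes, 33 CpG pairs and 72.4% G and C, and that of *Kcnc2* held no GC box, 2 CpG pairs and 56.0% G and C. Promoters were found for 45 of the 68 genes. Of these 60% held a GC box, against 32.4% of 27457 rat promoters of the same length, and their median G and C content was 65.6% against 52%. The 45 belong to genes above the floor of 0.5 CPM, whereas the 27457 were not filtered on expression, so the sets are unlike. TATAAA was in 0 of the 45 (13.1% of all promoters), TGACGTCA, the cAMP response element, in 0 (1.7%) and CACGTG, an E-box, in 2, *Kcne4* and *Kcnh4* (4.44%, against 5.79%). No 2 of these motifs overlap by their letters. Such matches describe the letters of these windows only.

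*Kcnc2* (ENSRNOG00000004077) encodes a Shaw-type channel that repolarises the membrane quickly and serves fast-spiking interneurons. It was at 119, 132, 129 and 115 CPM in Del/+ and at 98.0, 98.9, 109, 106 and 107 in Dup/+. In wt it lay at 105, 111 and 116 (lowest, median, highest), and in Del/Dup at 116, 104, 106 and 107. Every Del/+ library was above every Dup/+ library, and wt and Del/Dup lay between, touching both. The difference was 0.24 on the log2 scale (SE 0.0485, edgeR adjusted p = 0.0201), and the slope was -0.12 per copy (SE 0.0245, adjusted p = 0.0236). Against wt, Del/+ differed by 0.16 (adjusted p = 0.0982) and Dup/+ by -0.08 (adjusted p = 0.584). The first of these was 0.04 with a term for the multi-mapped share (adjusted p = 0.854). *Pvalb*, which marks fast-spiking interneurons, was at 38.5 to 49.8 CPM in Del/+, 28.7 to 36.8 in Dup/+, 28.8 to 35.6 in wt and 29.5 to 46.8 in Del/Dup. Of the 6 interneuron markers, 0 were called and 2 had an unadjusted p under 0.05 in Del/+ against Dup/+, with sums of 727 to 842 and 710 to 777 CPM. Their part in the *Kcnc2* difference was not tested. With a term for the multi-mapped share the difference was 0.12 and no longer called (adjusted p = 0.529), and with the dentate and CA3 marker level it was 0.21 (adjusted p = 0.0529). The call was also lost with the replicate block, a term for the replicate number (adjusted p = 0.0571), with only these groups in the fit, and without Del/+ replicate 2 or 3 or Dup/+ replicate 1 or 2. The slope was lost with the replicate block (adjusted p = 0.0771), with the term for the multi-mapped share (adjusted p = 0.196) and without the same 4 libraries, taken out 1 at a time.

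*Kcna2* (ENSRNOG00000018285), a Shaker-type subunit of axons and axon initial segments, was at 368, 503, 412 and 437 CPM in Del/+ and at 347, 302, 320, 370 and 357 in Dup/+. It lay at 336, 371 and 389 in wt (lowest, median, highest) and at 410, 342, 393 and 375 in Del/Dup. The lowest Del/+ value was within the Dup/+ range, and the highest came from Del/+ replicate 2. The difference of 0.33 (SE 0.0753) had an adjusted p of 0.0427, and the slope of -0.16 per copy (SE 0.0369) one of 0.0423. Both lie close to the threshold. The difference was called in 13 of 31 alternatives and the slope in 12 of 30, and in no alternative did the sign turn. Both calls ended when wt replicate 5 was moved to Dup/+ (adjusted p = 0.0801 and 0.108), with the term for the multi-mapped share (0.275 and 0.284), with the dentate and CA3 marker level (0.118 and 0.0718) and with the replicate block (0.0823 and 0.0783). The difference was also lost with only these groups in the fit (adjusted p = 0.114). The difference was not called when replicate 2, 3 or 4 of Del/+, 1, 2, 3 or 5 of Dup/+, 4 or 5 of Del/Dup, or 1, 2, 3 or 6 of wt was left out. Its smallest value over all alternatives was 0.25.

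*Kcng1* differed by -0.46 between Del/+ and Dup/+ (SE 0.103, edgeR adjusted p = 0.0349). Its slope of 0.22 per copy was not called (adjusted p = 0.132). The difference stayed between -0.63 and -0.41 over the alternatives. It was lost with the term for the multi-mapped share (adjusted p = 0.137), with the dentate and CA3 marker level (adjusted p = 0.0934), without Del/+ replicate 1, 2 or 4, and without Dup/+ replicate 2, 3, 4 or 5. *Kcng2* was at 24.3 to 32.8 CPM in Dup/+ and 14.7 to 22.2 in Del/+. These ranges were apart, yet the difference of -0.65 (SE 0.233) had an adjusted p of 0.224. It was called with only these groups in the fit.

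*Kcnn3*, a small-conductance calcium-activated channel behind the afterhyperpolarisation, was at 7.55 ± 1.28 CPM in Del/+ and 10.3 ± 1.48 in Dup/+, a difference of -0.45 (SE 0.138, adjusted p = 0.154). The other tested members of its family, *Kcnn1* and *Kcnn2*, differed by 0.11 and 0.00 (adjusted p = 0.612 and 0.999). *Kcnh5* had the largest difference of the 68, 0.77, with an SE of 0.247 (adjusted p = 0.176).

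By family, voltage-gated subunits that form pores comprised 6 tested of 8 *Kcna* genes, 4 of 4 *Kcnc* and 2 of 2 *Kcnd*. These counts cover only symbols present in the files. *Kcnd2* had no entry under that symbol, so the *Kcnd* family was not covered in full. *Kcnd3*, an A-type channel, stayed within 0.02 of wt in all 3 groups (SE 0.0627 to 0.0670).

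All 10 silent subunit genes of the *Kcnf*, *Kcng*, *Kcns* and *Kcnv* families were tested, with *Kcng1* called. All 8 *Kcnh* genes were tested, with none called by edgeR in any comparison. *Kcnh3* was at 75.5 ± 7.54 CPM in wt and 71.1 ± 5.24 in Del/+. All 5 *Kcnq* genes were tested, with none called by edgeR.

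Of 14 *Kcnj* genes 12 were tested and of 14 *Kcnk* genes 10, again with none called. The G-protein-gated *Kcnj3* was at 95.4 ± 8.18, 99.7 ± 1.71, 93.4 ± 3.89 and 91.3 ± 8.23 CPM in wt, Del/+, Dup/+ and Del/Dup. Its partner *Kcnj6* had a mean of 83.8 ± 10.7 in wt and 68.7 ± 7.44 in Del/+ (-0.30, adjusted p = 0.240). *Kcnj4*, an inward rectifier of forebrain neurons, differed from wt by 0.03, -0.02 and 0.01. Of the leak channels, *Kcnk1* was at 49.1 ± 4.09, 51.7 ± 5.19, 49.3 ± 1.23 and 53.4 ± 6.08 CPM, and *Kcnk2*, opened by stretch and lipids, at 15.8 to 24.4, 15.1 to 24.6, 18.2 to 24.9 and 17.1 to 29.3. The values of the 4 groups overlapped for both genes.

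Of the calcium-activated channels, 3 of 5 large-conductance genes and 3 of 4 *Kcnn* genes were tested. *Kcnma1*, the large-conductance pore, was at 205 ± 9.76, 197 ± 9.21, 202 ± 18.8 and 195 ± 7.05 CPM, and its neuronal partner *Kcnmb4* at 36.7 ± 2.15, 36.3 ± 1.94, 35.0 ± 0.823 and 39.0 ± 3.12. Their differences from wt lay between -0.07 and 0.09 on the log2 scale, with SE of 0.0510 to 0.0547. *Kcnn2* stayed within 0.05 of wt in all groups (SE 0.0655 to 0.0708). Of 3 sodium-activated or related genes 2 were tested, and 2 of 4 *Kcne* genes.

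At the floor of 0.5 CPM, *Kcne4* (0.501), *Kcnq1* (0.530) and *Kcne5* (0.866) were just inside, and *Kcnk16* (0.271), *Kcnn4* (0.235) and *Kcnmb1* (0.221) just outside. No reads were counted for *Kcnk6* and *Kcna10*. *Cldn5*, an endothelial gene, was also at 0 in all 19 libraries, so that a 0 in these files sets no limit on expression. Among the 14 genes below the floor are *Kcne1* and *Kcnj1*, known for heart and kidney. Levels in CPM are not per length and were not compared between genes.

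The auxiliary and partner proteins were taken from a list of 33 genes. The files held 31, and 29 passed the filter on low counts. One, *Kcnip2*, was called in Del/+ against wt (3.45%, against 0.771% of all genes), and none in the other comparisons. The groups did not overlap for 2 of the 29 in Del/+ against wt (6.9%, against 4.88% of all genes) and for 1 in Del/Dup against wt (3.45%, against 2.54%). At an unadjusted p under 0.05 there were 8 of 29 in Del/+, 3 in Dup/+ and 11 in Del/Dup, each against wt, and 4 in Del/+ against Dup/+. These are 27.6, 10.3, 37.9 and 13.8% of the 29, against 18.4, 8.94, 16.2 and 13.5% of all genes. *Kcnip2* (ENSRNOG00000050450) encodes a calcium-binding subunit that brings A-type *Kcnd* channels to the membrane. It was at 12.1 to 15.7 CPM in Del/+, and at 18.5, 22.1 and 29.2 in wt (lowest, median, highest). These groups did not overlap, and the level fell by 0.65 on the log2 scale (SE 0.142, edgeR adjusted p = 0.0359). It was 15.1 to 22.3 in Dup/+ (-0.38, adjusted p = 0.393) and 11.8 to 20.7 in Del/Dup (-0.57, adjusted p = 0.114). The call in Del/+ was lost in 13 of 31 alternatives, namely those with the replicate block (-0.58, adjusted p = 0.0731), the term for the multi-mapped share (-0.53, adjusted p = 0.355), the *Ttr* covariate (-0.63, adjusted p = 0.0963), the dentate and CA3 marker level (-0.47, adjusted p = 0.301), wt replicate 5 counted as Dup/+ (adjusted p = 0.0589), and fits without wt replicate 1, 2, 3, 5 or 6 or Del/+ replicate 2, 3 or 4.

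Other partners gave values but no call. *Kcnip3* had its highest mean in Del/Dup, 51.3 ± 7.28 CPM against 39.3 ± 3.80 in wt (0.39, adjusted p = 0.138). *Kcnab2*, a cytoplasmic subunit of *Kcna* channels, was at 311 to 385 CPM in Del/Dup and 387 to 456 in wt, which did not overlap (-0.26, adjusted p = 0.154). *Kcnab3*, of the same family, was at 10.8 to 21.0 CPM in Del/+ and 8.94 to 10.6 in wt, also apart (0.60, adjusted p = 0.0871). *Dpp6*, a transmembrane partner of *Kcnd* channels, was at 472 ± 16.6 CPM in Del/+ and 517 ± 46.4 in wt (-0.14, adjusted p = 0.270), and *Abcc8*, the sulfonylurea receptor of KATP channels, at 35.8 ± 3.66 and 42.4 ± 3.34 (-0.25, adjusted p = 0.106).

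Some channel genes varied widely between animals of a genotype. Among 51 genes with a mean of at least 5 CPM, the SD within groups on the log2 scale had a median of 0.145, and the highest were those of *Kcnf1* (0.505), *Kcnh5* (0.418), *Kcng2* (0.391), *Kcnj16* (0.364) and *Kcnt1* (0.341). *Kcnf1*, a silent subunit, was at 24.5, 43.7, 22.4 and 28.5 CPM in Del/+, at 53.2, 21.9, 41.1 and 20.8 in Del/Dup, at 15.4 to 32.8 in Dup/+, and at 14.9, 17.2 and 36.9 in wt (lowest, median, highest). *Kcnh5*, an ether-à-go-go channel, was at 11.3, 26.5, 13.2 and 24.2 in Del/+, at 25.5, 12.2, 21.2 and 14.2 in Del/Dup, at 8.89 to 13.3 in Dup/+, and at 9.82, 11.9 and 18.7 in wt. In both genes replicates 2 and 4 were the highest of Del/+ and of Del/Dup, and replicate 5 the highest of wt. *Kcnt1* had the same libraries at the top of these 3 groups, and *Kcng2* was lowest in replicates 2 and 4 of Del/+.

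The markers of dentate granule cells and CA3, combined as a mean log2 deviation from all libraries, were lowest in Del/Dup replicate 2 (-0.61), Del/+ replicate 2 (-0.41), Del/Dup replicate 4 (-0.18) and Del/+ replicate 4 (-0.10). The wt libraries lay at 0.00 to 0.31, with replicate 5 the lowest, and Dup/+ at -0.09 to 0.17. Summed dentate markers were 251 to 326 CPM in Del/+, 218 to 419 in Del/Dup and 325 to 414 in wt, and CA3 markers 259 to 401, 237 to 413 and 325 to 499. None of these 7 markers was called in Del/+ against wt, and 2 of 4 dentate and 3 of 3 CA3 markers had an unadjusted p under 0.05. With their level as a covariate the *Kcnt1* difference between Del/Dup and wt was 0.11 (adjusted p = 0.903). Their part in the levels of *Kcnf1*, *Kcnh5* and *Kcng2* was not tested. The markers of thalamus and habenula, tissue next to the hippocampus, summed to 62.1 to 71.8 CPM in Del/+ and 41.8 to 52.8 in wt, with 0 of 5 called and 3 at an unadjusted p under 0.05.

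**Figure D4:**
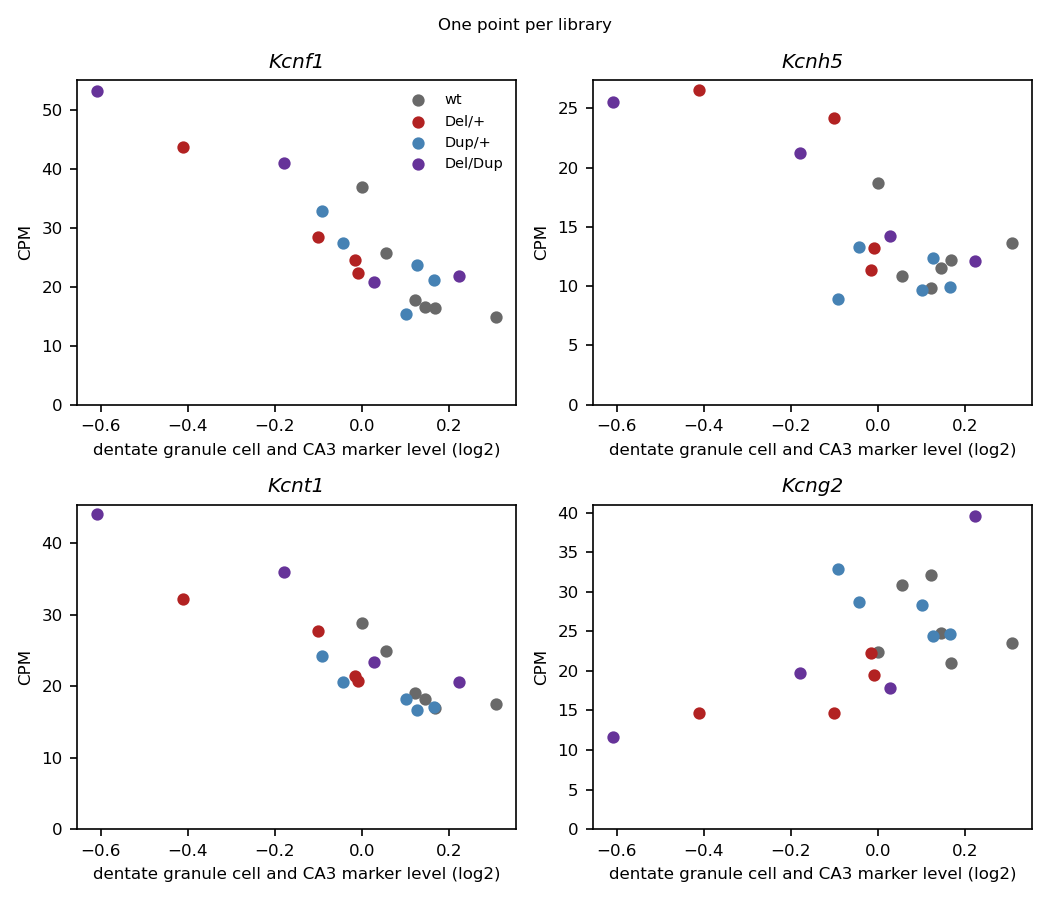
CPM of *Kcnf1*, *Kcnh5*, *Kcnt1* and *Kcng2* (vertical) against the combined level of dentate granule cell and CA3 markers (horizontal, log2 deviation from the mean of all libraries), 1 point per library, coloured by genotype. The library lowest in these markers, Del/Dup replicate 2 at -0.61, had the highest *Kcnf1* (53.2 CPM) and *Kcnt1* (44.1) and the lowest *Kcng2* (11.7). The points share library, depth and dissection.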

How the data were processed

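RNA was sequenced from the hippocampus of 19 male rats, 1 library each, as 50-base single-end reads. Per the labels the kit was a stranded total RNA kit with ribosomal RNA removal, while the molecule field gives polyA RNA. The authors aligned reads with Hisat2 to the rat Rno6 assembly (Ensembl annotation) and deposited raw counts per gene from HTSeq-count. The submitters' processing notes also name bcl2fastq 2.17.1.14, R 3.6 and DESeq2. The strand setting of the counting was not given in the sources used here, so reads of overlapping or antisense genes cannot be told apart. Reads that map to several places and reads in no gene (6.94 to 16.1% of a library's lines) stayed out of the totals.

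Counts were tested with edgeR 4.0.16 (quasi-likelihood, TMM scaling, 15440 genes after filterByExpr, common biological coefficient of variation 0.101) in R 4.3.3. The fit held 1 mean per group over all 19 libraries, contrasts, and a slope on interval copies. P-values were adjusted by Benjamini-Hochberg over all genes tested, at 0.05, and no p was adjusted over the channel genes alone. CPM use the TMM-scaled library size. The prior count was 2, and SE is that of the log2 fold change. A gene was called where its adjusted p was under 0.05. Scripts were tested on simulated data.

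The members, gene lists, marker lists and tests were chosen with earlier results of these data known. Named genes were all called members, the 4 of smallest p in each comparison, the 2 of highest mean CPM in each of 13 families, the 3 next to the floor on each side, and any accessory gene called. Genes outside this rule (*Kcng2*, *Kcnj10*, *Kcnq3*, *Kcnj6*, *Kcnf1*, *Kcnh5*, *Kcnj16*, *Kcnh8*, *Kcnv2*, the other members named in counts and the uncalled partners) were chosen after their values were seen. Alternatives were DESeq2 1.42.0, other scalings and filters, a replicate block, wt replicate 5 as Dup/+ or left out, a term for the multi-mapped share, marker covariates, and each library left out. Some channel genes are counted but not reported singly or plotted here. Replicate numbers did not pair the animals. Promoters of GRCr8 came from RefSeq.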

Additional observations from a re-analysis of the deposited data

Results flagged for a closer look

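In 132 groups of values (each named gene in each genotype), 9 held a library set apart from the rest of its group by more than a 95% limit for the gap relative to the range. Chance gives such a flag in about 1 of 20 groups. The silent subunit *Kcng4* stood at 28.18 CPM in wt replicate 2, with the other wt libraries at 22.00 to 24.22. *Kcnv1* was low in wt replicate 4 (58.52 CPM, others 65.08 to 67.99) and in Dup/+ replicate 3 (55.76, others 60.56 to 61.21). The sodium-activated *Kcnt2* was low in Del/+ replicate 2 (47.94 CPM, others 54.55 to 54.62), and the M-channel gene *Kcnq5* was low in Del/Dup replicate 2 (168.1, others 203.6 to 210.0). The large-conductance pore *Kcnma1* was low in wt replicate 4 (185.7 CPM, others 204.9 to 211.1). Its partner *Kcnmb4* was low in wt replicate 1 (32.69, others 36.62 to 38.77) and high in Dup/+ replicate 1 (36.42, others 34.47 to 34.72). *Kcnip2* was high in wt replicate 6 (29.21 CPM, others 18.47 to 22.47). Without that library its fall in Del/+ was not called.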

How the results depend on the processing

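The 25 named results were log2 fold changes and, across the 4 groups, adjusted p-values, which have no sign. No log2 fold change turned its sign. Of 771 alternatives over the 25 results, 673 kept their side of the threshold, 80 lost a call and 18 gained one. The 132 group means moved by less than 1 SD when CPM used the library size alone, the only other scaling tried for them. The number of channel genes called changed as follows. In the main fit edgeR called 0 across the 4 groups, 1 in Del/+ against wt, 3 in Del/+ against Dup/+ and 2 on the slope. Its shares of all genes there were 0.823, 0.771, 0.784 and 0.576%. DESeq2 gave 4 across the 4 groups, 5 in Del/+ against wt and 3 on the slope. Its shares of all genes there were 4.57, 4.24 and 1.05%. Testing every gene with a read gave 1 across the 4 groups. With the term for the multi-mapped share, 0 were called in Del/+ against wt, in Del/+ against Dup/+ and on the slope. The *Ttr* covariate gave 0 in Del/+ against wt. The dentate and CA3 marker covariate, chosen after seeing the data, gave 0 in Del/+ against wt, 0 in Del/+ against Dup/+ and 1 on the slope. With wt replicate 5 counted as Dup/+ there were 2 in Del/+ against Dup/+ (*Kcnc2* and *Kcng1*) and 1 on the slope. With only the groups compared, Del/+ against Dup/+ had 2 (*Kcng1* and *Kcng2*). The replicate block, for numbers that do not pair animals (correlations of same-numbered libraries -0.222 to 0.136, none best with its own number), gave 1 in Del/+ against wt, 1 in Del/+ against Dup/+ and 0 on the slope. Leaving out each library in turn gave 0 to 4 across the 4 groups, 0 to 2 in Del/+ against wt, 0 in Dup/+ against wt, 0 to 1 in Del/Dup against wt, 0 to 3 in Del/+ against Dup/+ and 0 to 2 on the slope. For the alternatives other than DESeq2 the share of all genes called is not given here. A change in channel calls under them cannot be told apart from a change over all genes. The causes of these changes were not tested. Floors of 0.25 and 1 CPM left 69 and 65 genes.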

Other observations

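The genes set aside as choroid plexus markers varied more within groups than any of the 68 channel genes tested, with an SD on the log2 scale of 1.44 for *Kcnj13* and 0.915 for *Kcne2*, against at most 0.812. *Kcnj13*, an inward rectifier of that epithelium, had a wt range of 0.215 to 0.885 CPM. In Del/+ it reached 12.4, in Dup/+ 3.28 and in Del/Dup 10.3. *Kcne2*, a single-pass subunit of the same cells, had a wt range of 0.960 to 1.80 CPM and reached 10.4 in Del/+, 4.31 in Dup/+ and 11.6 in Del/Dup. The lowest library of each carrier group lay within the wt range for both genes, and neither was called with edgeR in Del/+ against wt (adjusted p = 0.0946 and 0.136).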
